A study of Mus musculus with 21 samples.

Results

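The genes described here encode 10 secreted growth factors of 3 families in mouse skin: the platelet-derived growth factors Pdgfa, Pdgfb, Pdgfc and Pdgfd, the vascular endothelial growth factors Vegfa, Vegfc and Pgf, and the fibroblast growth factors Fgf2, Fgf7 and Fgf18. They were taken by symbol from a count table of 64050 symbols, of which 20462 had enough reads to be tested, and all 10 genes were among them. The 21 libraries came from BALB/c mice that modelled chronic graft-versus-host disease with scleroderma-like skin. All recipients were irradiated with 700 cGy at 8 weeks of age and given bone marrow, and treatment ran from day 21 to week 7, when skin was taken. Anti-IL1RAP skin (4 libraries) came from recipients of B10.D2 marrow given mCAN10, an antibody against IL1RAP, the co-receptor shared by the IL-1, IL-33 and IL-36 receptors. Allogeneic isotype skin (4 libraries) came from recipients of B10.D2 marrow given the isotype antibody mIgG2a LALA-PG, and syngeneic skin (4 libraries) from recipients of BALB/c marrow given the same isotype. Nintedanib skin (5 libraries) and water skin (4 libraries) came from recipients of B10.D2 marrow given nintedanib or ddH2O. Antibody injections began at 20 mg/kg and went on at 10 mg/kg. Nintedanib was dosed at 50 mg/kg by mouth daily per the protocol, but the design text names injection for all allogeneic groups, which leaves the route unclear. Every animal was thus a transplanted, irradiated recipient, and no untransplanted skin was analysed here. The labels do not give sex or say that each sample is a separate mouse, so p-values measure the spread between samples.

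These ligands act on receptor tyrosine kinases on neighbouring cells. PDGFs bind PDGFRα and PDGFRβ on fibroblasts and pericytes, VEGF-A and VEGF-C act on blood and lymphatic endothelium, and FGFs bind FGFR1 to FGFR4 together with heparan sulfate. In skin, FGF7 is made by dermal cells and acts on keratinocytes, and in mice FGF18 is made in resting hair follicles, where it holds the resting phase. Nintedanib blocks the kinases of these same 3 receptor families, so the genes described here lie upstream of its targets.

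Total counts ranged from 17130264 to 32899212 per library. The anti-IL1RAP, allogeneic isotype and syngeneic libraries (12) were counted in one run and the nintedanib and water libraries (9) in another that used partly different gene names, so comparisons were made only within a run. The basal keratinocyte keratin Krt5 was at 2681 to 8417 CPM (counts scaled to library size with TMM factors) in the 21 libraries. Libraries were made from poly-A RNA of a 3 mm piece of skin. The summed skeletal muscle list was 5507 to 32164 CPM in anti-IL1RAP skin, 28.4 (library 1) to 78998 CPM (library 3) in allogeneic isotype skin and 46063 to 72159 CPM in syngeneic skin, so every anti-IL1RAP library lay below every syngeneic one. Nintedanib libraries 1 and 3 had summed hair follicle lists of 65006 and 23424 CPM, while the other 3 were at 68.0 to 109 CPM and water libraries at 87.1 to 472 CPM. The summed fibroblast list was 4808 to 11699 CPM in anti-IL1RAP skin, 1216 to 5570 CPM in allogeneic isotype skin and 6286 to 8003 CPM in syngeneic skin. Y-linked transcripts summed to 0 in the allogeneic isotype and water groups and to 2.73 to 6.61 CPM in syngeneic skin, 0 to 15.2 CPM in anti-IL1RAP skin and 0 to 27.9 CPM in nintedanib skin; the part of sex in any result was not tested. The 10 genes lie on chromosomes 5 (Pdgfa), 15 (Pdgfb), 3 (Pdgfc and Fgf2), 9 (Pdgfd), 17 (Vegfa), 8 (Vegfc), 12 (Pgf), 2 (Fgf7) and 11 (Fgf18). In bulk skin, fewer cells of a type and less RNA per cell cannot be told apart.

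Pdgfd, Fgf7 and Fgf18 were the 3 ligand genes called lower in allogeneic isotype against syngeneic skin, so their upstream sequences are shown. They are the 250 bases before the start of the RefSeq transcript in GRCm38.p6, taken for the 9 members that matched (none for Pdgfb). Capitals mark the matches to the motifs searched.
Fgf18 (chr11:33147401-33147650, − strand): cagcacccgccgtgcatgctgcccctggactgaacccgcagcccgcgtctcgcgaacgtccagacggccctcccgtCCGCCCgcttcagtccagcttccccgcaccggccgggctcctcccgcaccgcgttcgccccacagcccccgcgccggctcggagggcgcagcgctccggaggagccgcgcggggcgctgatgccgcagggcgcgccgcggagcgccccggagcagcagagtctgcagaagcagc
Fgf7 (chr2:126034408-126034657, + strand): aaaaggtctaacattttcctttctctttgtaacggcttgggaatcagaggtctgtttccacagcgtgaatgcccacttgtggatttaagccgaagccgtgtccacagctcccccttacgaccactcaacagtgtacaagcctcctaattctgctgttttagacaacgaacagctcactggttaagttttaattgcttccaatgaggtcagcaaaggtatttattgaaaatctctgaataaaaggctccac
Pdgfd (chr9:6168236-6168485, + strand): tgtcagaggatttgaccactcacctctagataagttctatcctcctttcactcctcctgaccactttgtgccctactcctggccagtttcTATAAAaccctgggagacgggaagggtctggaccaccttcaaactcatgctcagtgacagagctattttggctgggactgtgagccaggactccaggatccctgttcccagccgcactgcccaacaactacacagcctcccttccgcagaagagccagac
The motifs searched on both strands were the TATA box (TATAAA), the GC box (GGGCGG), the hypoxia response core (ACGTG), the AP-1 site (TGANTCA), the E-box (CACGTG, which contains the hypoxia core), the CRE (TGACGTCA) and an NF-kB consensus site. Among 32851 promoters of this length, 12.4% held the TATA box, 32.7% the GC box, 16.6% the hypoxia core, 6.75% the AP-1 site, 6.02% the E-box, 1.55% the CRE and 1.41% the NF-kB site. Fgf18 holds 1 GC box, Pdgfd 1 TATA box and Fgf7 none of the 7, so the 3 promoters share no match. GC content was 77.2% for Fgf18, 43.6% for Fgf7 and 53.6% for Pdgfd.

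To ask what changed with allogeneic marrow, allogeneic isotype skin was compared with syngeneic skin. Of the 10 ligand genes, 3 fell and none rose. This compares with 22.6% of all genes called in either direction, 13.8% called higher and 8.8% called lower by edgeR's quasi-likelihood test at an adjusted p under 0.05. The median log2 fold change of the 10 genes was -0.27, against 0 over all genes.

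Fgf18 was at 7.52, 0.728, 0.774 and 0.438 CPM in allogeneic isotype libraries 1 to 4, against 14.7, 13.04, 27.8 and 17.8 CPM in syngeneic libraries. The groups did not overlap, and library 1 stood above the other 3 allogeneic isotype libraries. The log2 fold change was -2.93 ± 0.81 (SE), a 7.62-fold lower level (edgeR adjusted p = 0.0137). Without library 1 it was -4.80 (edgeR adjusted p = 0.000523), and with skeletal muscle content as a covariate -4.44. Library 1 also had the highest hair follicle sum of its group, 718 CPM, against 58.7 CPM to 134 CPM in the other 3. With hair follicle content as a covariate the log2 fold change was -2.60 (edgeR adjusted p = 0.0230). That covariate had 1 slope over all 21 libraries of both runs. The highest hair sums were in nintedanib libraries 1 and 3 (65006 and 23424 CPM), where Fgf18 was at 5.29 and 3.42 CPM. The fit therefore cannot settle the part of hair content within allogeneic isotype skin.

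Fgf7, the keratinocyte growth factor, was at 6.93, 5.30, 2.85 and 9.75 CPM in allogeneic isotype skin, against 10.6, 12.3, 11.6 and 15.1 CPM in syngeneic skin. All 4 allogeneic libraries lay below the lowest syngeneic one. The log2 fold change was -0.9996 ± 0.31 (edgeR adjusted p = 0.0256), but it missed the threshold without allogeneic isotype library 2 (adjusted p = 0.0707), without library 3 (0.0604), without syngeneic library 4 (0.0738), and in a fit of these 2 groups alone (0.0552).

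Pdgfd, a latent PDGF that must be cleaved to bind PDGFRβ, was at 3.76, 2.55, 4.06 and 2.31 CPM in allogeneic isotype skin, against 7.26, 8.88, 4.84 and 6.87 CPM in syngeneic skin. As with Fgf18 and Fgf7, every allogeneic isotype library lay below every syngeneic one, so 3 of 10 ligands were lower without overlap, beside 12.5% of all genes. It fell by 1.13 ± 0.31 on the log2 scale (edgeR adjusted p = 0.0137), and missed the threshold with skeletal muscle content as a covariate (log2 fold change -1.01, adjusted p = 0.0611).

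**Figure D1:**
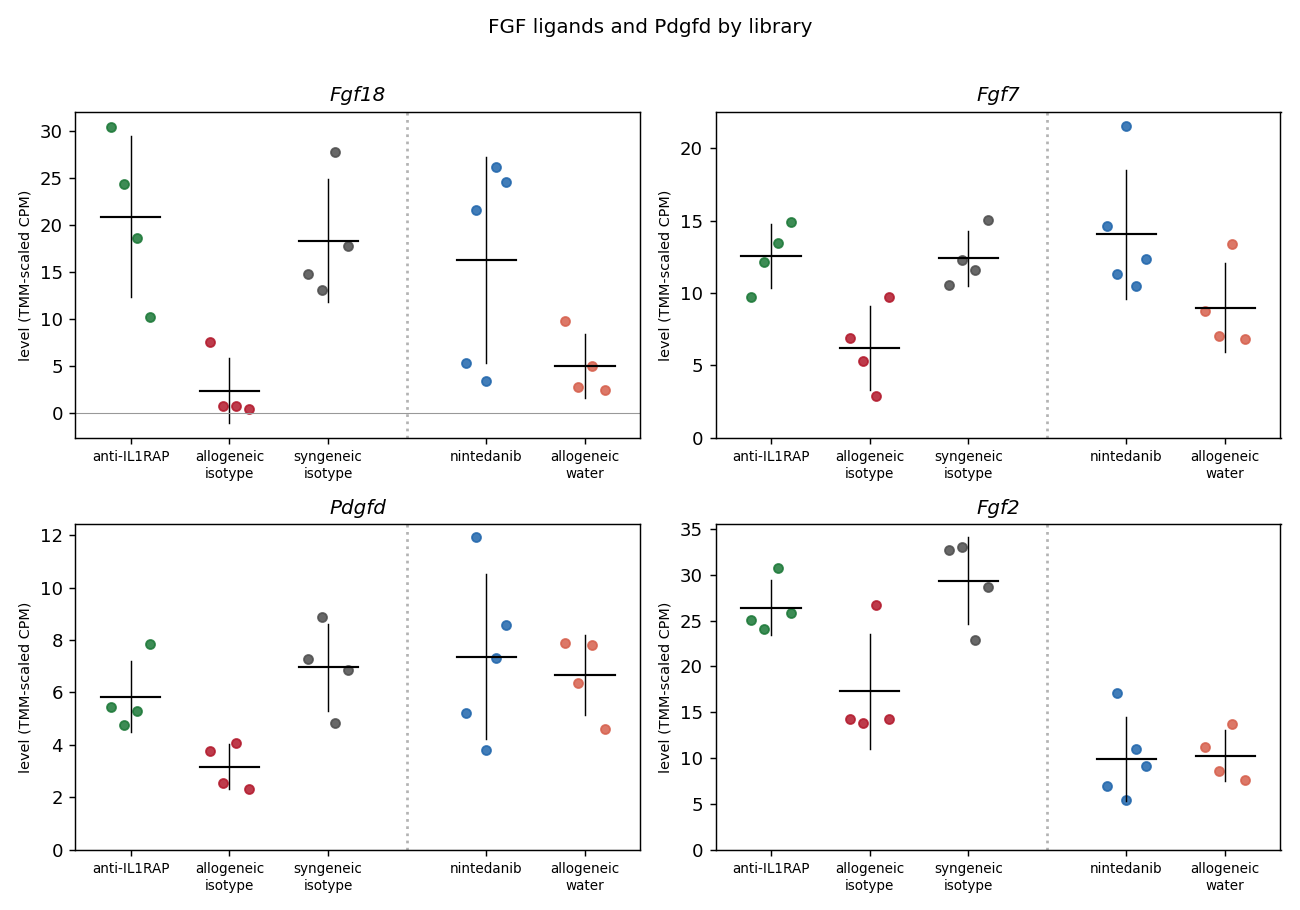
TMM-scaled CPM of Fgf18, Fgf7, Pdgfd and Fgf2 in each library (points), with the group mean (bar) and SD (line, which can reach below 0). The dotted line separates the counting runs; Fgf18 lies at 0.438 to 7.52 CPM in allogeneic isotype skin and at 13.04 to 27.8 CPM in syngeneic skin.

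The other 7 ligands were not called by edgeR in the fit of all 21 libraries; DESeq2 called 4 of the 10, Fgf2 beside the 3 above. Fgf2, a heparin-bound FGF without a signal peptide, was at 14.3, 13.8, 26.7 and 14.3 CPM in allogeneic isotype skin, against 32.7, 33.03, 22.9 and 28.7 CPM in syngeneic skin. Library 3 of the allogeneic group alone overlapped the syngeneic range, and the log2 fold change was -0.76 ± 0.29 (edgeR adjusted p = 0.0676). Fgf2 was called in 8 of 18 alternative fits. Among them were DESeq2 (adjusted p = 0.0412), the fit of this run alone (edgeR adjusted p = 0.0113) and the 2 groups alone (0.0355). It was also called without allogeneic isotype library 3 (log2 fold change -1.05, edgeR adjusted p = 0.0159). Both fits with a block for replicate number called it too (0.0190 and 0.0480). Fgf2 shares 640 exon bases with Nudt6 on the opposite strand and 255 with Gm43439 on the same strand. The library kit did not mark strand. Reads over the shared bases may have been counted for either gene or left out, since the counting settings were not available here. Pdgfc, which also needs cleavage, was at 21.2, 22.6, 17.3 and 13.7 CPM in allogeneic isotype skin, against 13.9, 12.5, 9.63 and 12.3 CPM in syngeneic skin (log2 fold change 0.63 ± 0.35, edgeR adjusted p = 0.209). Pdgfc was called in 3 of 18 alternative fits: the fit of this run alone (log2 fold change 0.60, edgeR adjusted p = 0.0217) and the fits with either replicate block. Pdgfc overlaps Gm16000 over 147 bases on the other strand, and Pdgfa overlaps 6330403L08Rik over 813. The remaining 5 had differences smaller than their SE, with log2 fold changes of -0.29 ± 0.38 for Vegfa, -0.25 ± 0.35 for Vegfc, -0.12 ± 0.16 for Pdgfa, 0.00 ± 0.24 for Pdgfb and 0.09 ± 0.32 for Pgf.

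Anti-IL1RAP skin was then compared with allogeneic isotype skin. Of the 10 ligands, 2 rose and none fell, where 10.8% of all genes were called, with 5.58% called higher and 5.19% called lower. These 2, Fgf18 and Fgf7, were also lower in allogeneic isotype skin, but the comparisons share the 4 allogeneic isotype libraries. The median log2 fold change of the 10 was 0.38, against 0 over all genes.

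Fgf18 was at 30.4, 24.3, 18.6 and 10.2 CPM in anti-IL1RAP skin, against 7.52, 0.728, 0.774 and 0.438 CPM in allogeneic isotype skin. The groups did not overlap, and the level was 8.69-fold higher with a log2 fold change of 3.12 ± 0.81 (edgeR adjusted p = 0.0180). The call was lost without allogeneic isotype library 2 (adjusted p = 0.0528), 3 (0.0556) or 4 (0.0597). Without library 1 the log2 fold change was 4.99 (adjusted p = 0.000916). DESeq2 also called 2 ligands in this comparison.

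Fgf7 was at 9.72, 12.1, 13.4 and 14.9 CPM in anti-IL1RAP skin, against 6.93, 5.30, 2.85 and 9.75 CPM in allogeneic isotype skin. The lowest anti-IL1RAP library lay just under the highest allogeneic one, so the groups overlapped. The log2 fold change was 1.02 ± 0.31 (edgeR adjusted p = 0.0410), and only 8 of 18 alternative fits kept the call. It was lost without any one of allogeneic isotype libraries 1, 2 or 3 (adjusted p = 0.0563, 0.114 and 0.106) or of the 4 anti-IL1RAP libraries (0.0528, 0.0847, 0.111 and 0.140).

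Pdgfd was at 5.44, 4.78, 5.31 and 7.83 CPM in anti-IL1RAP skin, against 3.76, 2.55, 4.06 and 2.31 CPM in allogeneic isotype skin. The groups did not overlap, but the log2 fold change of 0.88 ± 0.31 missed the threshold (edgeR adjusted p = 0.0795). Pdgfd was called in 1 of 18 alternative fits of this comparison. In all, 2 of the 10 ligands, Fgf18 and Pdgfd, were higher without overlap, beside 12.2% of all genes. Vegfc, the lymphatic growth factor, was at 6.98, 6.39, 6.74 and 8.15 CPM in anti-IL1RAP skin, against 5.27, 2.91, 2.03 and 6.75 CPM in allogeneic isotype skin (log2 fold change 0.74 ± 0.35, edgeR adjusted p = 0.207). Fgf2 was 0.61 ± 0.29 higher on the log2 scale (adjusted p = 0.204), with its anti-IL1RAP values at 24.0 to 30.8 CPM. The other 5 log2 fold changes lay between -0.10 and 0.15. Of 15 fibroblast markers, 6 rose in anti-IL1RAP against allogeneic isotype skin (median log2 fold change 1.43), beside 5.58% of all genes. In allogeneic isotype against syngeneic skin 6 fell (median -1.10), beside 8.8% of all genes. Of 13 activated keratinocyte markers, 11 fell in the first of these comparisons and 11 rose in the second, beside 5.19% and 13.8% of all genes. Of 12 differentiated keratinocyte markers, 5 fell in the first and 8 rose in the second. Of 12 dermal papilla markers, none was called in the first and 2 fell in the second. The part of these cell types in the ligand levels was not tested.

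**Figure D2:**
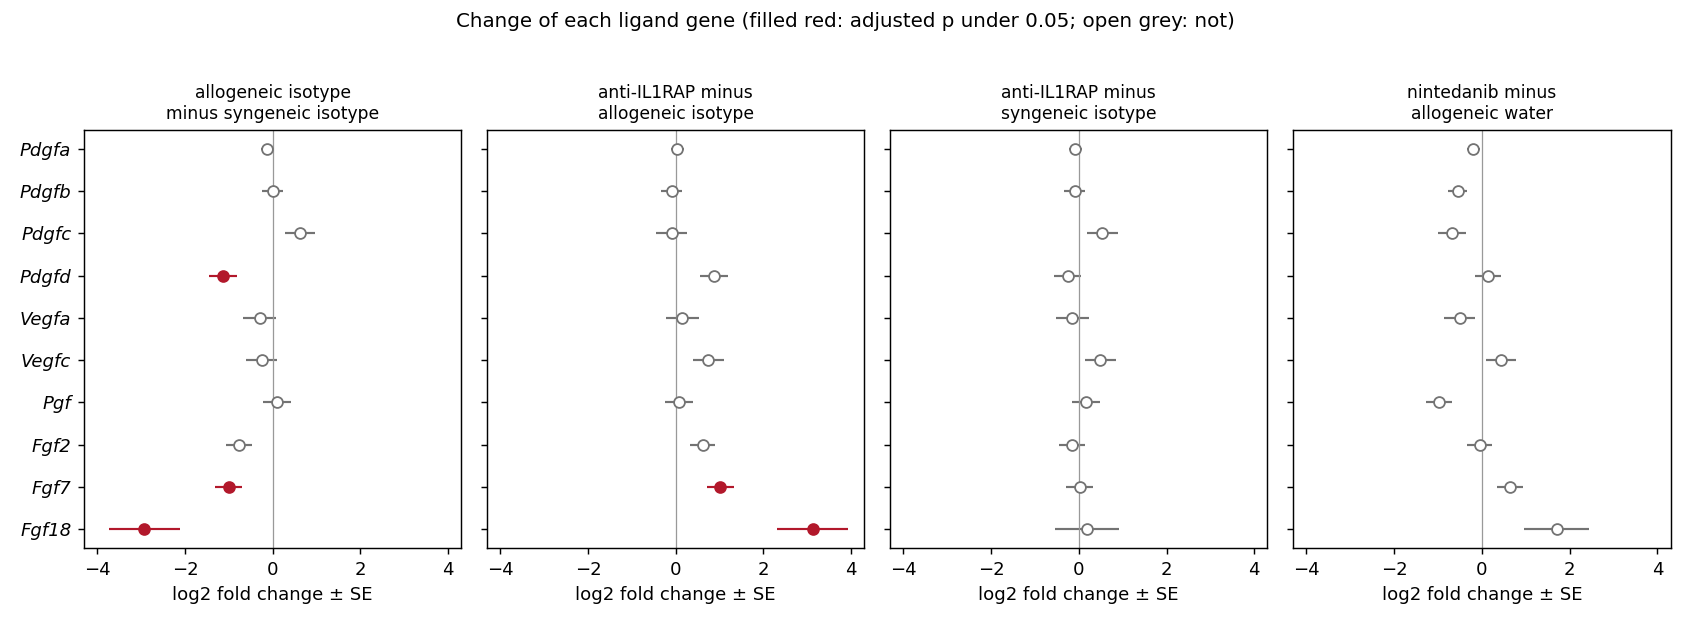
log2 fold change with SE for each ligand gene in 4 comparisons from 1 edgeR fit. Filled red points are called; Fgf18 stands at -2.93 in allogeneic isotype against syngeneic skin and at 3.12 in anti-IL1RAP against allogeneic isotype skin.

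Against syngeneic skin, none of the 10 ligands passed in anti-IL1RAP skin (0 of 10, beside 0.811% of all genes), none had an unadjusted p under 0.05 (13.7% of all genes did), and DESeq2 also called 0. The log2 fold change was 0.19 ± 0.74 for Fgf18, 0.02 ± 0.30 for Fgf7 and -0.25 ± 0.30 for Pdgfd, and the wide SE of Fgf18 leaves room for sizeable differences. Pdgfc was at 18.7, 18.7, 14.1 and 18.7 CPM in anti-IL1RAP skin, against 13.9, 12.5, 9.63 and 12.3 CPM in syngeneic skin. Pdgfc and Vegfc were higher without overlap, as were 10.8% of all genes, but neither passed (log2 fold changes 0.54 ± 0.35 and 0.49 ± 0.35, edgeR adjusted p = 0.543 and 0.598).

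Nintedanib skin was compared with water skin of the same run. Of the 20462 genes tested, 17917 had counts in this run. The rest could not be called here but stay in the shares of all genes given below. None of the 10 passed (0 of 10, beside 9.31% of all genes), 5 had an unadjusted p under 0.05 (25.5% of all genes did), and DESeq2 called 1, Pgf. A fit of this run alone called only 94 genes in all, against 1906 in the fit of all 21 libraries. The cause of that drop was not tested.

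Pgf, placental growth factor, which binds VEGFR1, was at 0.947, 2.70, 1.06, 2.61 and 1.93 CPM in nintedanib libraries 1 to 5, against 2.99, 3.87, 4.10 and 3.59 CPM in water libraries. It was lower without overlap, as were 3.2% of all genes, with a log2 fold change of -0.97 ± 0.30 (edgeR adjusted p = 0.0503, and 0.195 in the fit of this run alone). Without the 2 libraries of high hair content, it was -0.63 (adjusted p = 0.185). Those 2 had the lowest Pgf values.

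Fgf18 was at 5.29, 21.6, 3.42, 26.1 and 24.6 CPM in nintedanib skin, against 9.77, 2.70, 4.99 and 2.45 CPM in water skin. The low nintedanib values belonged to libraries 1 and 3, the ones rich in hair follicle transcripts, and the other 3 lay above every water library. The log2 fold change was 1.70 ± 0.74 (edgeR adjusted p = 0.154), and 2.25 without libraries 1 and 3 (adjusted p = 0.0703). Fgf7 was at 14.6, 11.3, 21.6, 10.5 and 12.4 CPM in nintedanib skin, against 8.73, 7.001, 13.4 and 6.84 CPM in water skin. Here libraries 1 and 3 were the highest, and the log2 fold change of 0.65 ± 0.29 (adjusted p = 0.172) was 0.30 without them (adjusted p = 0.689). With hair follicle content as a covariate the log2 fold change was 1.79 for Fgf18 (adjusted p = 0.145), 0.41 for Fgf7 (0.397) and -0.77 for Pgf (0.0549).

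**Figure D3:**
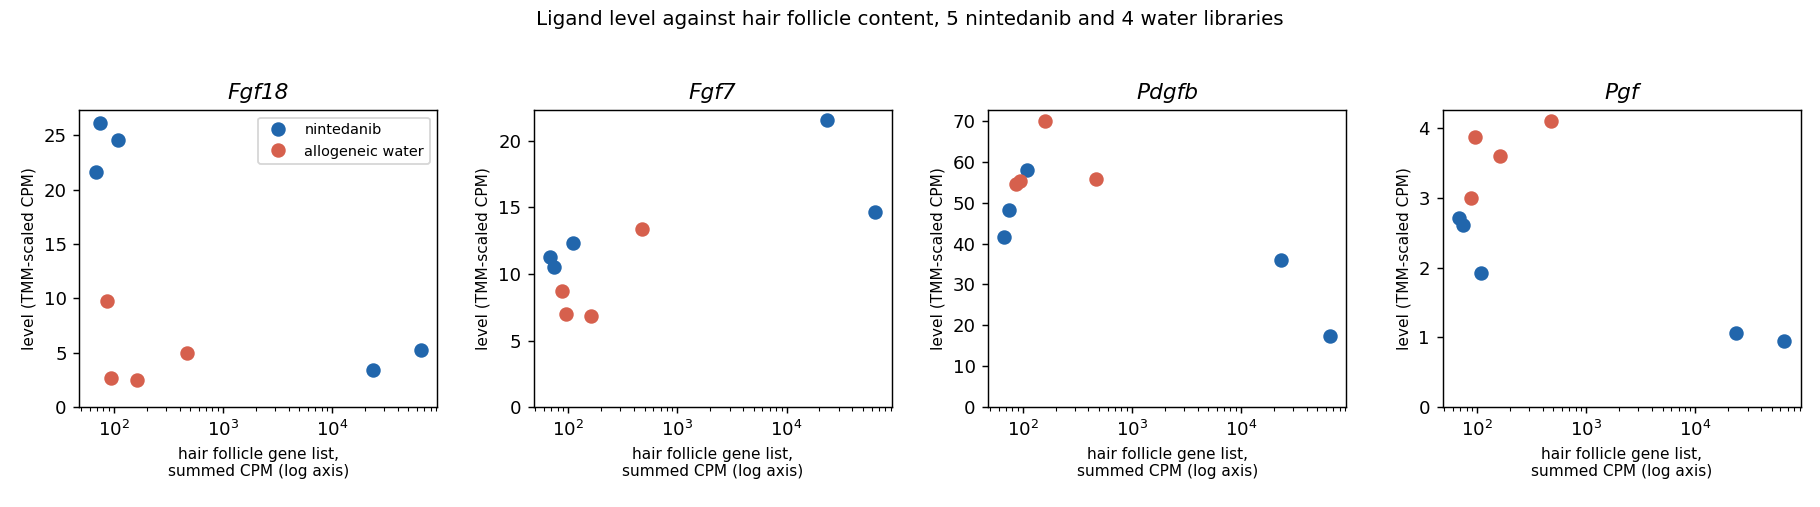
TMM-scaled CPM of Fgf18, Fgf7, Pdgfb and Pgf against the summed CPM of the hair follicle list (log axis) in 5 nintedanib and 4 water libraries. The 2 nintedanib libraries at 65006 and 23424 CPM of hair genes hold the lowest Pgf and Pdgfb values and the highest Fgf7 values.

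Pdgfb, which recruits pericytes to vessels, was at 17.3, 41.6, 35.9, 48.1 and 58.1 CPM in nintedanib skin, against 54.6, 55.3, 55.8 and 69.97 CPM in water skin. One nintedanib library overlapped the water range, and the log2 fold change was -0.55 ± 0.22 (edgeR adjusted p = 0.125, and 0.0366 without nintedanib library 5, where it was -0.72). Pdgfc was at 9.35, 19.2, 9.33, 32.0 and 27.4 CPM in nintedanib skin, against 19.5, 43.5, 40.6 and 21.4 CPM in water skin (log2 fold change -0.68 ± 0.33, adjusted p = 0.196). Vegfa, the main endothelial growth factor, was at 63.1, 187.3, 61.7, 67.5 and 48.4 CPM in nintedanib skin, against 159.3, 71.4, 120.4 and 136.0 CPM in water skin. Nintedanib library 2 alone was high, and the log2 fold change was -0.51 ± 0.36 (edgeR adjusted p = 0.409), or -1.02 without that library (adjusted p = 0.0286). Library 2 also had a summed adipocyte list of 23306 CPM, against 2488 to 4006 CPM in the other nintedanib libraries. The part of adipocyte content was not tested. Pdgfa was at 45.6 to 82.2 CPM in nintedanib skin and 63.7 to 84.0 CPM in water skin, and Pdgfd and Fgf2 had log2 fold changes of 0.14 and -0.05. Vegfc had one of 0.43 ± 0.34.

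**Figure D4:**
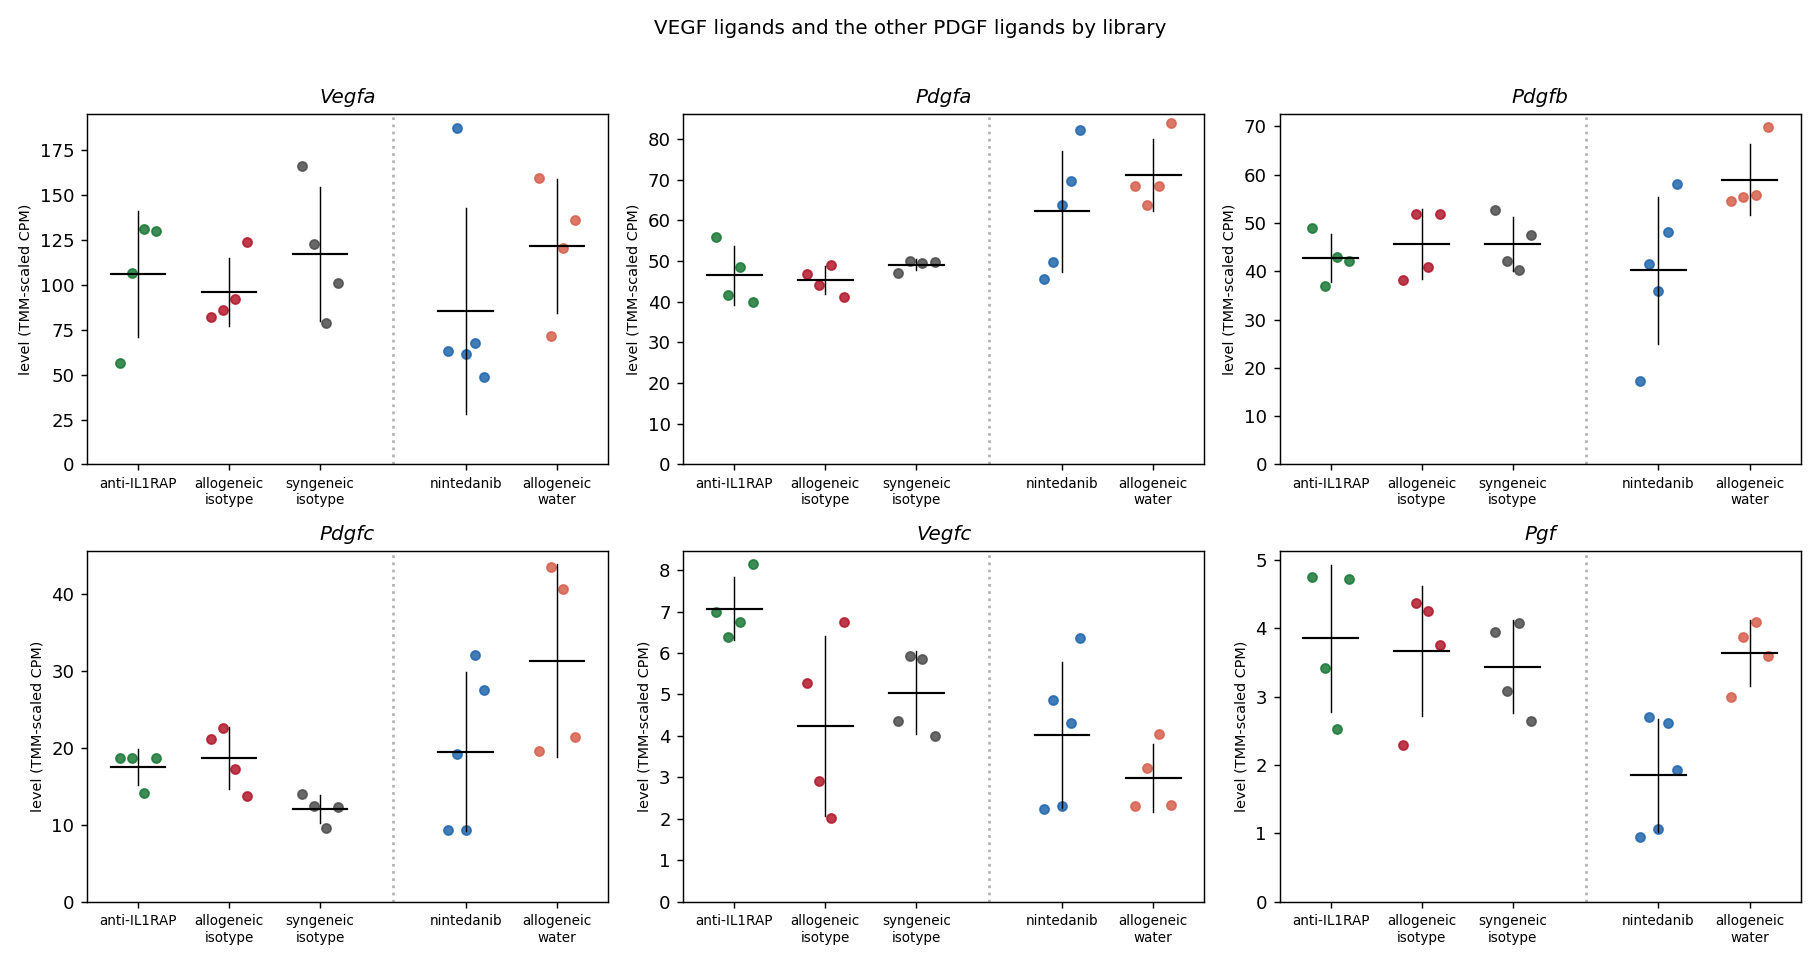
TMM-scaled CPM of Vegfa, Pdgfa, Pdgfb, Pdgfc, Vegfc and Pgf in each library, with group means and SD; the dotted line separates the counting runs. None of these 6 genes was called by the edgeR fit of all 21 libraries in any of the 4 comparisons; DESeq2 called Pgf in nintedanib against water skin.

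The effects of the 2 treatments, each against its own control, were compared in 1 term. No ligand was called (0 of 10, beside 0 of all genes). Of the 10, 1, Pgf, had an unadjusted edgeR p under 0.05, where 12.2% of all genes did. Its difference was 1.05 ± 0.44 on the log2 scale (edgeR adjusted p = 0.337). All 10 differences were above 0, with a median of 0.62, against -0.05 over all genes. Some SEs were wide, as for Fgf18 (1.42 ± 1.04). DESeq2 called 0 of the 10 and 426 genes.

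To compare levels between genes, CPM was divided by exon length. On this scale Vegfa had the highest mean in every group, at 24.8 CPM per kilobase in anti-IL1RAP, 22.4 in allogeneic isotype, 27.3 in syngeneic, 20.0 in nintedanib and 28.4 in water skin. Its libraries overlapped those of the next gene in anti-IL1RAP, nintedanib and water skin, and in nintedanib skin its median was 14.7, against 20.4 for Pdgfa. Fgf18 was in rank 2 in anti-IL1RAP skin (17.6) and rank 3 in syngeneic (15.4) and nintedanib skin (13.6), overlapping its neighbours there, but in rank 6 in allogeneic isotype (1.99) and rank 5 in water skin (4.20). Pgf had the lowest mean in anti-IL1RAP, syngeneic and nintedanib skin, at 1.33, 1.18 and 0.637 CPM per kilobase. Pdgfd had it in allogeneic isotype (1.01) and Vegfc in water skin (1.22). By median, Fgf18 was lowest in allogeneic isotype skin, at 0.633, against 1.00 for Pdgfd. Its highest value there, 6.34, was that of library 1. The lowest ranks overlapped in all groups except syngeneic.

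**Figure D5:**
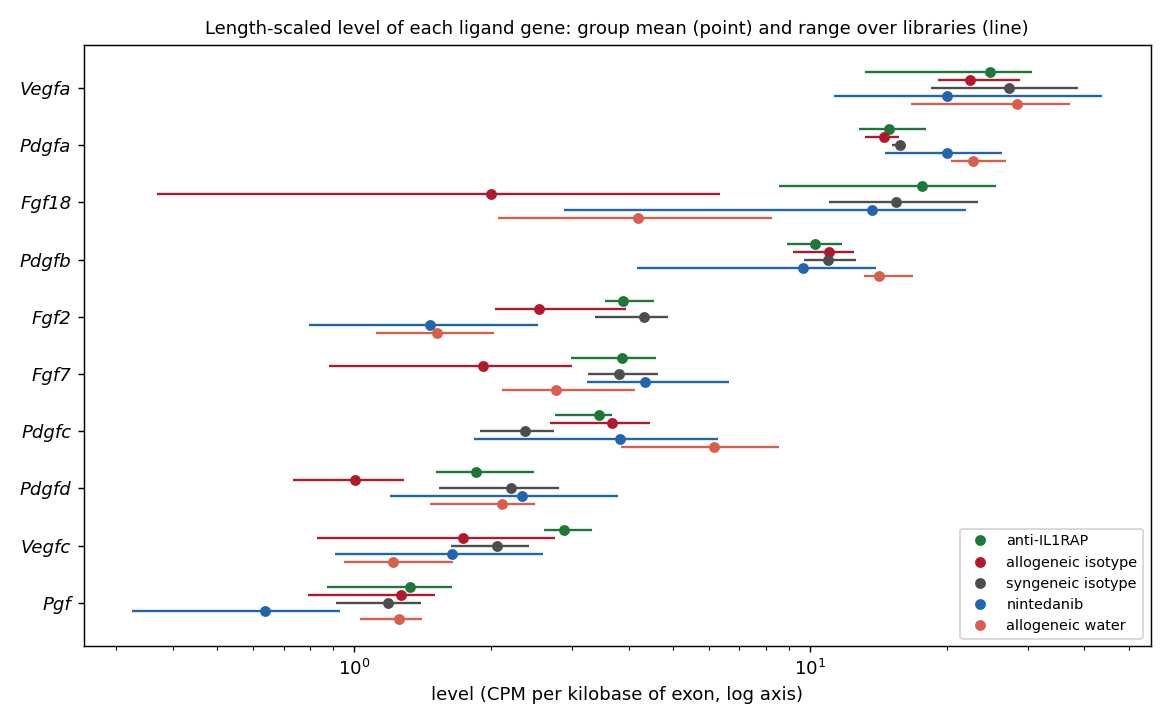
Group mean (point) and range over libraries (line) of CPM per kilobase of exon, log axis, by gene. Vegfa has the highest mean in each group, overlapping the next gene in anti-IL1RAP, nintedanib and water skin, and Fgf18 lies at 1.99 in allogeneic isotype skin and 4.20 in water skin.

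Around these genes, the other genes of the 3 families (21 listed, 16 tested) were not all secreted ligands, since they include intracellular FGFs. In allogeneic isotype against syngeneic skin 1 was higher and 3 were lower, or 4 of 16 beside 22.6% of all genes. That share is near the background. The 4 include Fgf11 and Fgf12, both intracellular. Fgf11, an intracellular FGF, averaged 5.26 ± 1.08 CPM in allogeneic isotype and 14.2 ± 0.81 CPM in syngeneic skin (SD, n = 4 each; log2 fold change -1.44 ± 0.23, edgeR adjusted p = 0.000345), and Fgf23, a phosphate-regulating hormone, had a log2 fold change of 5.13 from a syngeneic mean of 0.046 CPM. Anti-IL1RAP skin held 3 of the 16 higher than allogeneic isotype skin, where 5.58% of all genes were called higher. These were Fgf11, Fgf16 and Fgf12, so the count is not one of secreted ligands alone. Fgf11 led (1.44 ± 0.23, edgeR adjusted p = 0.000981). Fgf16 and Fgf12 were at low levels, with means of 0.96 and 0.61 CPM in anti-IL1RAP skin. Their means in allogeneic isotype skin were 0.24 and 0.11 CPM. Nintedanib skin held 2 higher and 1 lower than water skin (9.31% of all genes were called). Fgf5, which ends the hair growth phase, was one of these, but only libraries 1 and 3 were high, at 36.6 and 5.82 CPM.

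The shares of all genes called are to be set beside the counts that follow. They were 22.6% in allogeneic isotype against syngeneic skin (13.8% higher and 8.8% lower). In anti-IL1RAP against allogeneic isotype skin they were 10.8% (5.58% higher and 5.19% lower). In nintedanib against water skin the share in either direction was 9.31%. The nintedanib calls here and in the list before come from the fit of all 21 libraries. The fit of that run alone called far fewer genes, as given above. Of 17 receptors and co-receptors, allogeneic isotype skin held 2 lower than syngeneic skin and none higher. Kdr, the main VEGF-A receptor, averaged 13.7 ± 4.5 CPM in allogeneic isotype and 31.9 ± 13.2 CPM in syngeneic skin (log2 fold change -1.22, edgeR adjusted p = 0.048), and Pdgfrl changed by -1.09. Anti-IL1RAP skin held Pdgfrl higher (0.98) and Gpc1, a heparan sulfate co-receptor, lower (-1.19), and nintedanib skin the same 2 in the same directions against water skin (0.998 and -0.843). Of 11 processing genes tested, 3 rose and 3 fell in allogeneic isotype skin, among them Furin, a protease that activates growth factors (1.26), and Hspg2, the matrix proteoglycan perlecan (-0.80). In anti-IL1RAP skin Furin fell by 0.87 and Hspg2 rose by 0.70. Of 18 feedback targets, Dusp6, which switches off ERK, was 1.16 higher and Spry2 0.55 lower on the log2 scale in allogeneic isotype skin (3 higher and 1 lower of 18 in all, a share near that of all genes). None of the 18 was called by edgeR in nintedanib against water skin, where 5 had an unadjusted p under 0.05. Of 18 hypoxia targets, which respond to the factor that drives Vegfa, 3 were higher in allogeneic isotype skin, 3 lower in anti-IL1RAP skin and 4 lower in nintedanib skin. Egln3 had a log2 fold change of -1.51 in nintedanib against water skin. The summed list was 3584 to 6808 CPM in anti-IL1RAP skin, 3139 to 10780 CPM in allogeneic isotype skin and 8144 to 11473 CPM in syngeneic skin. Its mean was lower in allogeneic isotype (6733 CPM) than in syngeneic skin (10018 CPM), opposite to the called genes. In the direction of the called genes, it was lower in anti-IL1RAP (5000 CPM) than in allogeneic isotype skin. The same held for nintedanib (2247 CPM) against water skin (3581 CPM). The median log2 fold change of the 18 genes was 0.15, -0.40 and -0.46 in these 3 comparisons. In allogeneic isotype libraries 1 to 4 the hypoxia sum was 3139, 5790, 10780 and 7225 CPM. Their skeletal muscle sums ran in the same order, at 28.4, 14475, 78998 and 29771 CPM. The part of muscle content in the hypoxia sum was not tested.

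By the pattern over the 12 libraries of the first run, the genes nearest to Fgf18 were Wfdc3, Fa2h and Krt15 (root mean square difference of centred log2 CPM 0.51, 0.53 and 0.54 over 12 libraries). Krt15, a keratin of basal and hair follicle bulge cells, was at 1333 to 2329 CPM in anti-IL1RAP skin, 51.0 to 703 CPM in allogeneic isotype skin and 1840 to 3157 CPM in syngeneic skin. In the other run it was at 677 to 1445 CPM in nintedanib and 168 to 399 CPM in water skin. The likeness did not hold in nintedanib libraries 1 and 3. Krt15 was at 677 and 1032 CPM there, above every water library. Fgf18 was at 5.29 and 3.42 CPM there, within its water range of 2.45 to 9.77 CPM. The nearest to Fgf7 were Mex3b, Bmp4 and Ypel4 (0.20 to 0.22) and to Pdgfd Ace, Dbn1 and Heg1 (0.16 to 0.20).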

How the data were processed

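The authors' deposited values are whole-number counts per gene symbol. Per the submitters' processing notes they were made with FastQC, Trimmomatic, STAR and featureCounts on GRCm39 (versions and annotation: not given in the sources used here). Counting was done in 2 runs with partly different names, of which 21830 symbols had counts in both. Of the 20462 genes tested, 19677 had counts in the first run and 17917 in the second. Shares and medians over all genes include genes without counts in the run compared. Genes were kept with filterByExpr (minimum count 10), scaled with TMM factors, and fitted with edgeR 4.0.16 (R 4.3.3) by the quasi-likelihood method with a mean per group over all 21 libraries and Benjamini-Hochberg adjustment over 20462 genes; called means adjusted p under 0.05. Replicates of a group differed beyond counting noise. Exon lengths came from GENCODE M21 and promoters from RefSeq, both of GRCm38. Alternatives were RLE factors, no filter, only 1 run, only the groups compared, DESeq2 1.42.0, replicate blocks, covariates and leaving out each library. The muscle and hair covariates each had 1 slope over all 21 libraries. Nintedanib libraries 1 and 3 were left out after seeing the data. Named genes were all 10 members, up to 6 called genes of each pathway list, and 3 of like pattern per member. The members and lists were chosen with earlier results of these data known. Calculations were tested on simulated counts. Figures were drawn with matplotlib 3.10.9.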

Additional observations from a re-analysis of the deposited data

Results flagged for a closer look

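Of 50 gene and group pairs looked at, 5 had 1 library far from the others of its group, and chance alone sets apart about 1 in 20. Fgf18 was 7.523 CPM in allogeneic isotype library 1, the highest of its group, and Fgf2 was 26.7 CPM in allogeneic isotype library 3. Pdgfc was 14.05 CPM in anti-IL1RAP library 3, the lowest of its group. Vegfa was 187.3 CPM in nintedanib library 2 and Pdgfb 69.97 CPM in water library 4, each the highest of its group.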

How the results depend on the processing

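The direction of the called ligands did not change under any alternative run, and their calls are given with the results. The count of ligands called in allogeneic isotype against syngeneic skin was 5 in the fit of that run alone and with either replicate block. Those fits added Fgf2 and Pdgfc, where Pdgfc had an adjusted p of 0.0156 and 0.0299 with the title and description blocks. In anti-IL1RAP against allogeneic isotype skin the count was 1 with no filter, in a fit of the 2 groups alone and with the description-number block, and in nintedanib against water skin it was 1 with RLE factors, symbols of both runs, DESeq2 or the muscle covariate. Leaving out 1 library gave 2 to 3, 0 to 1, 0 to 0 (anti-IL1RAP against syngeneic) and 0 to 2 ligands.

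Genes called in anti-IL1RAP against allogeneic isotype skin numbered 3664 in that run alone and 1284 to 2168 with 1 library left out. Against syngeneic skin they numbered 106 with symbols of both runs, 676 with DESeq2, 505 in that run alone, 2131 with the 2 groups alone, 731 and 659 with the title and description blocks, 392 with the hair covariate and 31 to 152 with 1 library left out. In nintedanib against water skin they numbered 1190 with no filter, 3025 with DESeq2, 94 in that run alone and with the 2 groups alone, 33 with the replicate block, 29 with the 2-lane covariate, 1225 without nintedanib libraries 1 and 3, and 782 to 2794 with 1 library left out. In allogeneic isotype against syngeneic skin they numbered 3580 to 4953. The cause was not tested.

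The replicate blocks are among the alternative fits counted for each ligand in the Results. They were not used in the main fit, since same-numbered libraries did not deviate together in all pairs of any comparison.

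Uncalled ligands near 0 changed sign. Pdgfb in allogeneic isotype against syngeneic skin was -0.021 with RLE, -0.046 with no filter, -0.024 with symbols of both runs, -0.021 with DESeq2, -0.025 in that run alone, -0.035 with the 2 groups alone and -0.019 and -0.025 with the title and description blocks. In anti-IL1RAP against allogeneic isotype skin, the description block gave -0.0081 for Vegfa and -0.061 for Pgf, and the muscle covariate -0.026 for Pgf. Against syngeneic skin Fgf7 was -0.025 with RLE, -0.023 with no filter, -0.026 with symbols of both runs, -0.025 with DESeq2, -0.026 in that run alone, -0.026 with the 2 groups alone, -0.016 and -0.13 with the blocks and -0.037 with the muscle covariate; Fgf18 was -0.054 with the title block and -0.24 with the muscle covariate. In nintedanib against water skin, Pdgfd was -0.0071 with the block and Fgf2 0.096 with the hair covariate and 0.23 without the 2 libraries.

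With 1 library left out, log2 ranges that crossed 0 were -0.10 to 0.080 for Pdgfb and -0.042 to 0.26 for Pgf in allogeneic isotype against syngeneic skin. In anti-IL1RAP against allogeneic isotype skin they were -0.073 to 0.086 for Pdgfa, -0.21 to 0.0016 for Pdgfc and -0.10 to 0.21 for Pgf. Against syngeneic skin they were -0.31 to 0.073 for Vegfa, -0.13 to 0.13 for Fgf7 and -0.10 to 0.46 for Fgf18, and in nintedanib against water skin -0.10 to 0.29 for Pdgfd and -0.34 to 0.11 for Fgf2.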
